A study of Homo sapiens with 8 samples.

Results

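IL-17A, TNF-α and IL-1α all signal into keratinocytes through a small set of adapter proteins, and 10 genes of that set were followed here: TRAF3IP2, TRAF2, TRAF3, TRAF4, TRAF5, TRAF6, MAP3K7, TAB2, TNFAIP3 and TNIP1. They were chosen by name, as the adapters that carry the receptor signal and the proteins that brake it, and not by any measured value. All 10 were matched by Entrez identifier among 17131 genes in the table of estimated counts, and all 10 were among the 12434 genes with enough reads to be tested.

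The data were RNA sequencing libraries of HaCaT cells, an immortal line of human skin keratinocytes that is wild type by its labels. Every culture received M5, a cocktail of 5 cytokines (IL-17A, IL-22, TNF-α, IL-1α and oncostatin M) at 10 ng/mL for 24 h, which is used as a cell model of psoriasis. One group of 4 libraries is titled M5_O5 and the other group of 4 is titled M5, and by the study's methods one of the groups was also given 10 nM OTS514, an inhibitor of the kinase TOPK, starting 12 h before M5. The labels do not settle which group that was: the titles read as OTS514 in M5_O5, while the treatment entry names a TOPK inhibitor for the libraries titled M5 and no treatment for those titled M5_O5. Groups were therefore compared by title, and every difference below is M5_O5 minus M5, so that under the treatment entries an effect of OTS514 would have the opposite sign. No library without M5 was analysed here, so the response of these genes to the cytokines themselves cannot be read from the values. The labels do not say that the 4 libraries of a group came from separate cultures, and the p-values then measure only the spread between these libraries, which may be technical.

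The libraries held 16113015 to 16922693 estimated counts in M5_O5 and 13708055 to 16847599 in M5, and the 10 genes took 0.157% to 0.175% of them. M5 replicate 1, the library with the fewest counts, stood apart from the other M5 libraries, with a chi-square per gene of 10.4 to 16.5 in its pairs against 2.03 to 4.06 in the others. M5_O5 replicate 1 was less clearly apart, at 7.12 to 11.1 in its pairs against 3.05 to 7.15 in the others. Values without both libraries are given where they change a result. Keratinocyte identity was plain, with 10 of 10 keratinocyte markers tested and a summed level of 19312 to 22932 TPM (the authors' level per transcript length, scaled to the same sum in each library) in M5_O5 and 22749 to 24630 TPM in M5. Of these markers 7 were lower in M5_O5, 0 were higher, and their median log2 difference was −0.29. Few markers of other cells had enough reads to test: 2 of 6 fibroblast, 1 of 4 endothelial, 1 of 5 leukocyte and 0 of 4 melanocyte markers. Their summed levels per library were 9.51 to 14.9 TPM, 0.10 to 1.52 TPM, 45.4 to 54.8 TPM and 0.64 to 0.95 TPM. The 1 leukocyte marker tested was CD14, with up to 615 counts in a library, while the leukocyte defining gene PTPRC was at 0 in all 8 libraries. The fibroblast sum was 9.51 to 10.4 TPM in M5_O5 and 12.7 to 14.9 TPM in M5. The endothelial sum was 1.14 to 1.52 TPM in M5_O5 and 0.10 to 0.26 TPM in M5. The 1 endothelial marker tested was CDH5, with a log2 difference of 3.18 and up to 57 counts in a library. PECAM1, VWF and TEK had at most 1, 12 and 1 counts in a library. The part of these markers of other cells in the results was not tested.

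As background, the IL-17 receptor binds the adapter TRAF3IP2 (also called Act1), which brings in TRAF6, a ligase that builds ubiquitin chains. TAB2 binds those chains and so activates the kinase TAK1, the product of MAP3K7, which leads to NF-κB and MAP kinases, and the TNF and IL-1 receptors reach the same kinase through other adapters. TNFAIP3 (A20) edits and removes ubiquitin chains, and TNIP1 (ABIN1) binds both the chains and A20. Both restrain the signal, and both are themselves NF-κB targets.

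Matches to the NF-κB consensus were looked for in the promoters of the 10 genes, since NF-κB is the factor that this pathway ends on. The windows were the 250 bases before each transcription start in RefSeq on GRCh38.p14, read on both strands against the consensus decamer, with every 10-base match counted. All 10 genes had a window, 15 windows in all, and 3 of the 15 held a match, against 5.21% of the 35116 promoter windows of all genes. The 3 windows are shown because they belong to both brakes and to TRAF3, whose levels are described below. Capitals mark the matches, each sequence runs 5′ to 3′ on the strand of the gene, and a match is a match of letters and not a binding site.
TNFAIP3, chr6:137867177-137867228, plus strand: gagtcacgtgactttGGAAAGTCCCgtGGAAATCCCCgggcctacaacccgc
TNIP1, chr5:151081052-151081091, minus strand: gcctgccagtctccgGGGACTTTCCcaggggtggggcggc
TRAF3, chr14:102777401-102777440, plus strand: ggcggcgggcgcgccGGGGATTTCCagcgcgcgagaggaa

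The matches of TNFAIP3 began 67 and 55 bases before the start and did not overlap each other, and 0.635% of all promoter windows held 2 or more. That of TNIP1 began 42 bases before the start and lay in 1 of its 2 windows, and that of TRAF3 began 33 bases before the start. For TRAF2, TRAF4, TRAF5, TRAF6, TRAF3IP2, MAP3K7 and TAB2 the letters of the consensus were not in these windows.

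Between the groups, 6 of the 10 genes passed the test. TRAF5 was higher in M5_O5, by 1.71-fold, and TRAF3, TRAF4, TRAF6, MAP3K7 and TNFAIP3 were lower, by 10.6% to 21.2%. TRAF3IP2, TRAF2, TAB2 and TNIP1 did not pass. The test was edgeR's quasi-likelihood test on counts scaled by TMM, a scaling that assumes most genes are level, with an adjusted p under 0.05 over all 12434 genes. That background is broad: 19.5% of all genes tested were called higher in M5_O5 and 17.6% lower, 37.1% in either direction. DESeq2 also called 1 of the 10 genes higher (17.1% of all genes) and 5 lower (18.9%). A call with a fold change of at least 2 was made for 0 of the 10 genes and for 3.2% of all genes. The log2 difference was below 0 for 9 of the 10 (48.2% of all genes), although TRAF3IP2, TRAF2 and TAB2 lay at 0.01 to 0.08 under library size alone, a scaling that moved the median of all genes from 0.01 to 0.13. The median of the 10 genes was −0.16, against 0.01 over all genes. That shift depended on the expression level trend, described below. With this trend removed, TRAF3IP2, TRAF2, TAB2, TNFAIP3 and TNIP1 lay at −0.03 to −0.00, and the median of all genes was −0.00. TRAF6, TRAF3, TRAF4 and MAP3K7 then lay at −0.32 to −0.12, and TRAF5 at 0.52. The values of the groups did not overlap for 6 of the 10 (33.6% of all genes), 5 of them lower (15.8%) and 1 higher (17.8%), and these were the 6 genes that passed. For each of these 6 the two-sided exact permutation test of 4 against 4 libraries gave p = 0.0286, the smallest it can give. Any gene whose groups do not overlap gets this value, so it adds nothing to that count. In RNA from a whole culture, a lower level in each cell and fewer cells expressing the gene cannot be told apart.

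**Figure D1:**
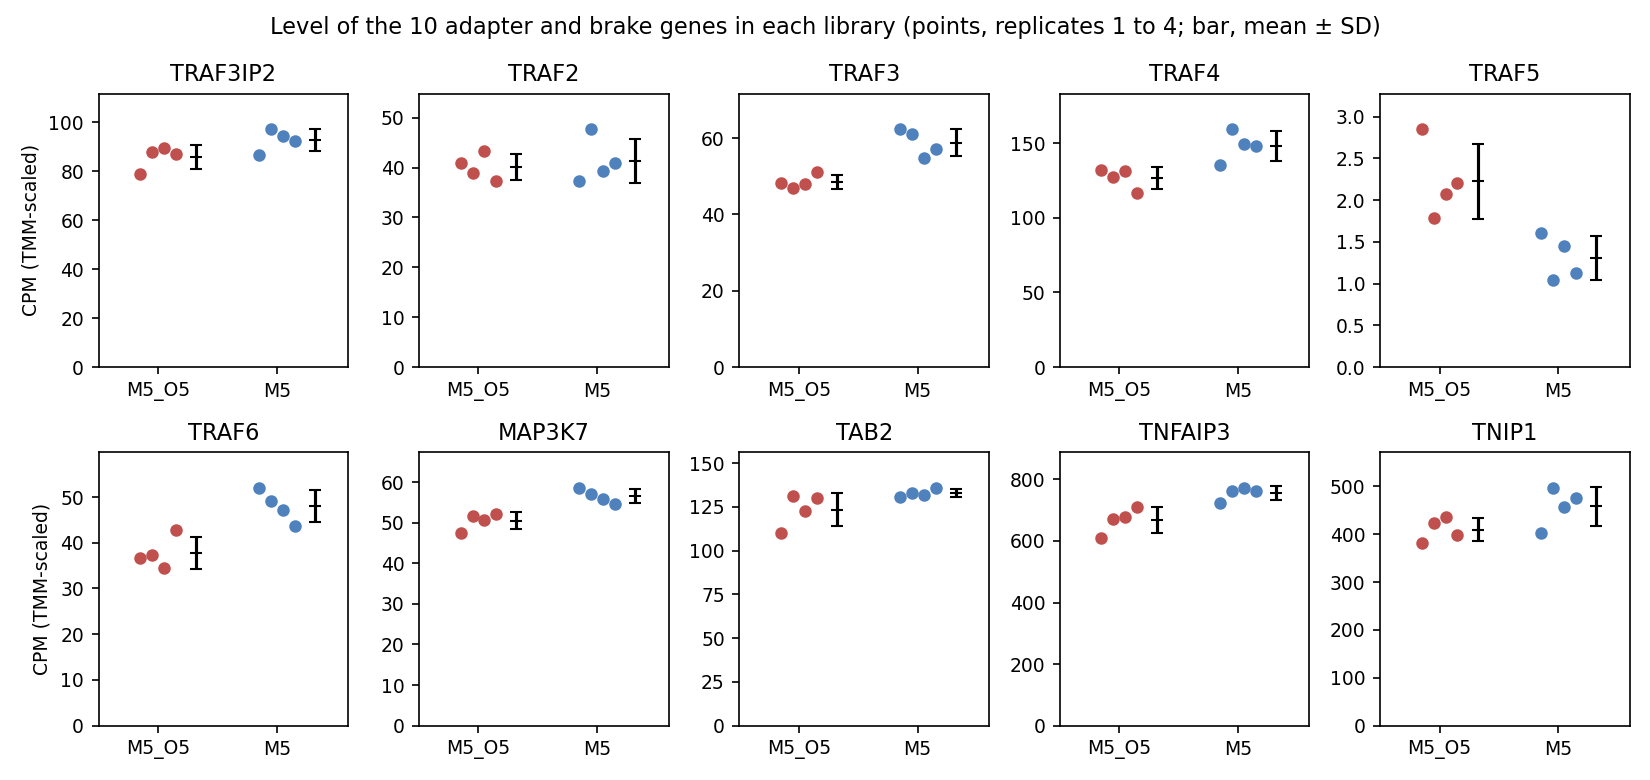
Level of each of the 10 genes in each library, in CPM, its counts relative to the TMM-scaled library total (y axis from 0), with M5_O5 in red and M5 in blue. Points are replicates 1 to 4 and the bar is the mean ± SD (n = 4), and the groups are apart for TRAF3, TRAF4, TRAF5, TRAF6, MAP3K7 and TNFAIP3.

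TRAF3IP2, the adapter at the IL-17 receptor itself, was measured at 78.9, 88.1, 89.5 and 87.2 CPM (counts relative to the TMM-scaled library total) in M5_O5 replicates 1 to 4. In M5 replicates 1 to 4 it was at 86.6, 97.2, 94.4 and 92.5 CPM. The groups overlapped through M5 replicate 1, the lowest of its group. The log2 difference was −0.11 (SE 0.059, 95% interval −0.24 to 0.02, edgeR adjusted p = 0.159), so a level lower in M5_O5 by up to 0.24 on the log2 scale lay within the interval. An antisense gene overlaps TRAF3IP2, and whether reads were counted by strand is not given in the sources used here, so its reads could not be told apart from those of TRAF3IP2.

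TRAF6 passes the signal on from TRAF3IP2 and from the IL-1 receptor, and of the 10 genes it was lower in M5_O5 by the most. It was at 36.7, 37.3, 34.5 and 42.8 CPM in M5_O5 and at 52.05, 49.1, 47.3 and 43.7 CPM in M5. Every M5_O5 library was below every M5 library, but the highest of the one and the lowest of the other nearly met. The log2 difference was −0.34 (SE 0.076, adjusted p = 0.0031), or 21.2% lower in M5_O5.

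TRAF3 limits signalling in more than one way: it can take the place of TRAF3IP2 on the IL-17 receptor, and it keeps the kinase MAP3K14 of the noncanonical NF-κB route at a low level. It was at 48.3, 46.8, 47.9 and 51.2 CPM in M5_O5 and at 62.3, 61.1, 54.7 and 57.2 CPM in M5. The M5_O5 libraries were close together and all below the M5 libraries, with a log2 difference of −0.28 (SE 0.061, adjusted p = 0.0029). TRAF4, which competes with TRAF6 for TRAF3IP2, was at 132, 128, 131 and 116 CPM in M5_O5 and at 135, 159, 150 and 148 CPM in M5. It was lower in M5_O5 by −0.22 (SE 0.062, adjusted p = 0.0112), with M5 replicate 1 only just above M5_O5 replicate 1.

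TRAF5 stood out by its direction and by its low level. With TRAF2 it acts downstream of TRAF3IP2 in the arm that keeps chemokine mRNAs stable, and it also binds receptors of the TNF family. Its counts were 49, 31, 35 and 37 reads in M5_O5 and 22, 16, 22 and 18 reads in M5. In CPM these were 2.85, 1.78, 2.07 and 2.2 against 1.61, 1.04, 1.45 and 1.12. Every M5_O5 library was above every M5 library, and the log2 difference was 0.78 (SE 0.216, 95% interval 0.31 to 1.24, adjusted p = 0.0117). With so few reads the interval was wide, from 0.31 to 1.24 on the log2 scale. TRAF2, which recruits the ubiquitin ligases BIRC2 and BIRC3 to the TNF receptor, was at 41.0, 38.9, 43.3 and 37.3 CPM in M5_O5 and at 37.4, 47.7, 39.3 and 40.8 CPM in M5. Its groups were mixed, and the log2 difference was −0.04 (SE 0.079, 95% interval −0.21 to 0.13, adjusted p = 0.706). Whether TRAF5 and TRAF2 differed from each other in their difference between the groups was not tested.

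Of the TAK1 complex, MAP3K7 was at 47.4, 51.7, 50.7 and 52.2 CPM in M5_O5 and at 58.6, 57.1, 55.7 and 54.7 CPM in M5. The groups were apart, and the log2 difference was −0.16 (SE 0.057, adjusted p = 0.0369). That call was lost when any 1 of 7 libraries was left out, each library except M5_O5 replicate 4, with adjusted p up to 0.0836, and it was also lost without replicate 1 of both groups (−0.12, adjusted p = 0.101). TAB2, the ubiquitin-binding partner, was at 110, 131, 123 and 130 CPM in M5_O5 and at 131, 133, 132 and 136 CPM in M5. M5_O5 replicates 1, 3 and 4 were below every M5 library and M5_O5 replicate 2 was level with M5 replicate 1, so that the groups overlapped narrowly, and the log2 difference was −0.11 (SE 0.060, 95% interval −0.24 to 0.02, adjusted p = 0.174).

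The brakes were by far the most counted of the 10 genes. TNFAIP3 was at 611, 673, 679 and 712 CPM in M5_O5 and at 722, 763, 773 and 762 CPM in M5. All M5_O5 libraries were below all M5 libraries, by a log2 difference of −0.18 (SE 0.059, adjusted p = 0.0300), or 11.4% lower in M5_O5. Leaving out any 1 of 6 libraries ended the call, the exceptions being M5_O5 replicate 4 and M5 replicate 1, with adjusted p up to 0.0845. TNIP1 was at 381, 423, 435 and 398 CPM in M5_O5 and at 403, 497, 457 and 476 CPM in M5. M5 replicate 1 lay among the M5_O5 libraries, and the log2 difference was −0.16 (SE 0.069, 95% interval −0.31 to −0.02, adjusted p = 0.0747). Without M5 replicate 1 it was −0.22 (adjusted p = 0.0052), and without replicate 1 of both groups −0.19 (adjusted p = 0.0053).

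M5 replicate 1 was the lowest or the highest of its group for each of the 10 genes. It was lowest for TRAF3IP2, TRAF2, TRAF4, TAB2, TNFAIP3 and TNIP1 and highest for TRAF3, TRAF5, TRAF6 and MAP3K7. Without replicate 1 of both groups TRAF5 differed by 0.74 (edgeR adjusted p = 0.0153), TRAF6 by −0.29 (adjusted p = 0.0047), TRAF3 by −0.25 (adjusted p = 0.0036), TRAF4 by −0.29 (adjusted p = 0.000409) and TNFAIP3 by −0.16 (adjusted p = 0.0100).

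How firmly these small differences stood depended on the scaling. Genes counted at high and low levels did not centre on the same difference. Under library size alone TRAF6 was lower by 0.23 (adjusted p = 0.0434), with 8.11% of all genes called lower, and TRAF5 was higher by 0.89 (adjusted p = 0.0067), with 31.0% of all genes called higher. TRAF3 (−0.16, adjusted p = 0.0712), TRAF4 (−0.11, adjusted p = 0.150), MAP3K7 (−0.05, adjusted p = 0.566) and TNFAIP3 (−0.06, adjusted p = 0.383) did not pass.

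When the trend of the difference with expression level was removed, TRAF3 (−0.23, adjusted p = 0.0104) and TRAF6 (−0.32, adjusted p = 0.0056) stayed past the threshold, with 14.6% of all genes called lower. TRAF5 was then at 0.52 (adjusted p = 0.0757). The brakes lay close to 0, with TNFAIP3 at −0.00 (adjusted p = 0.975) and TNIP1 at −0.01 (adjusted p = 0.954). On the deposited TPM values, tested with limma on log2(TPM + 1), the median of all genes was 0.12 and 1 of the 10 genes passed, TRAF5 at 0.43 (adjusted p = 0.0063), with 26.2% of all genes called higher and 6.12% lower. TRAF3 was there at 0.03 (adjusted p = 0.872) and MAP3K7 at 0.01 (adjusted p = 0.920), both under that median. So TRAF6 and TRAF3 passed as lower on 3 and 2 of these 3 count scalings respectively, and TRAF5 passed as higher on 2 of the 3 and on TPM. TRAF4, MAP3K7 and TNFAIP3 passed under TMM alone among these 4 scalings. A further count scaling, DESeq2's size factors in edgeR, called 5 of the 10 genes lower and 1 higher (2367 and 2310 of all genes). TRAF4 (adjusted p = 0.0092), MAP3K7 (adjusted p = 0.0264) and TNFAIP3 (adjusted p = 0.0263) were among those 5. When each library was centred on its median log2(TPM + 1), a step added after the values were seen, TRAF3IP2, TRAF2, TRAF3, MAP3K7 and TAB2 lay at −0.13 to −0.05 and did not pass. TRAF6 (−0.30, adjusted p = 0.0099), TRAF4 (−0.27, adjusted p = 0.0142), TNFAIP3 (−0.21, adjusted p = 0.0185) and TRAF5 (0.28, adjusted p = 0.0229) then passed, with 1910 of all genes called higher and 2347 lower.

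**Figure D2:**
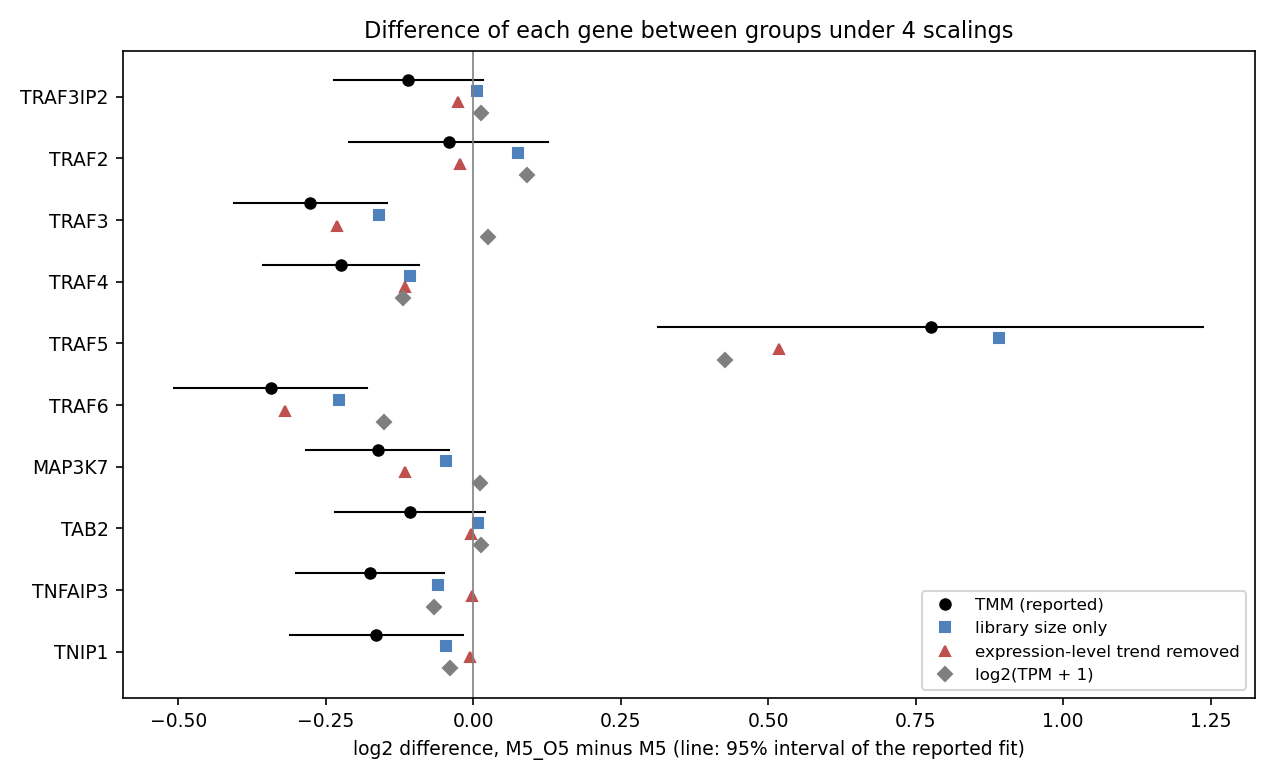
Log2 difference of each gene, M5_O5 minus M5 (x axis), under TMM (black, with its 95% interval), library size alone (blue), removal of the expression level trend (red) and log2(TPM + 1) (grey). TRAF5 lies to the right of 0 and TRAF6, TRAF4, TNFAIP3 and TNIP1 to the left on all 4. TNFAIP3 and TNIP1 are at only −0.00 and −0.01 with the trend removed. TRAF3IP2, TRAF2, TRAF3, MAP3K7 and TAB2 lie slightly above 0 under library size alone or log2(TPM + 1), where the median of all genes is 0.13 and 0.12.

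Levels can be compared between genes only per transcript length, so the deposited TPM were summed over the transcripts of each gene. The order was the same in both groups. TNIP1 was highest at 278 ± 9.76 TPM in M5_O5 and 285 ± 9.34 TPM in M5 (mean ± SD, n = 4), followed by TNFAIP3 at 247 ± 14.3 and 258 ± 9.57 TPM. The level of TNFAIP3 was 89.0% ± 6.0 of that of TNIP1 in M5_O5 and 90.7% ± 6.20 in M5. The brakes were thus listed at a higher TPM than any other of the 10 genes, the nearest of which was TRAF4 at 85.0 ± 5.65 and 92.3 ± 2.70 TPM.

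TAB2 came next at 49.6 and 49.1 TPM in M5_O5 and M5, then TRAF2 at 32.3 and 30.2 TPM. TRAF3IP2 (25.4 and 25.1 TPM) and MAP3K7 (24.7 and 24.6 TPM) overlapped in both groups, and no order can be given between them. TRAF3 was at 12.7 and 12.5 TPM and TRAF6 at 9.04 and 10.1 TPM, and these overlapped in M5 but not in M5_O5. TRAF5 was last at 1.18 ± 0.257 TPM in M5_O5 and 0.615 ± 0.101 TPM in M5. All other neighbours in the order had values that did not overlap between libraries of a group.

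**Figure D3:**
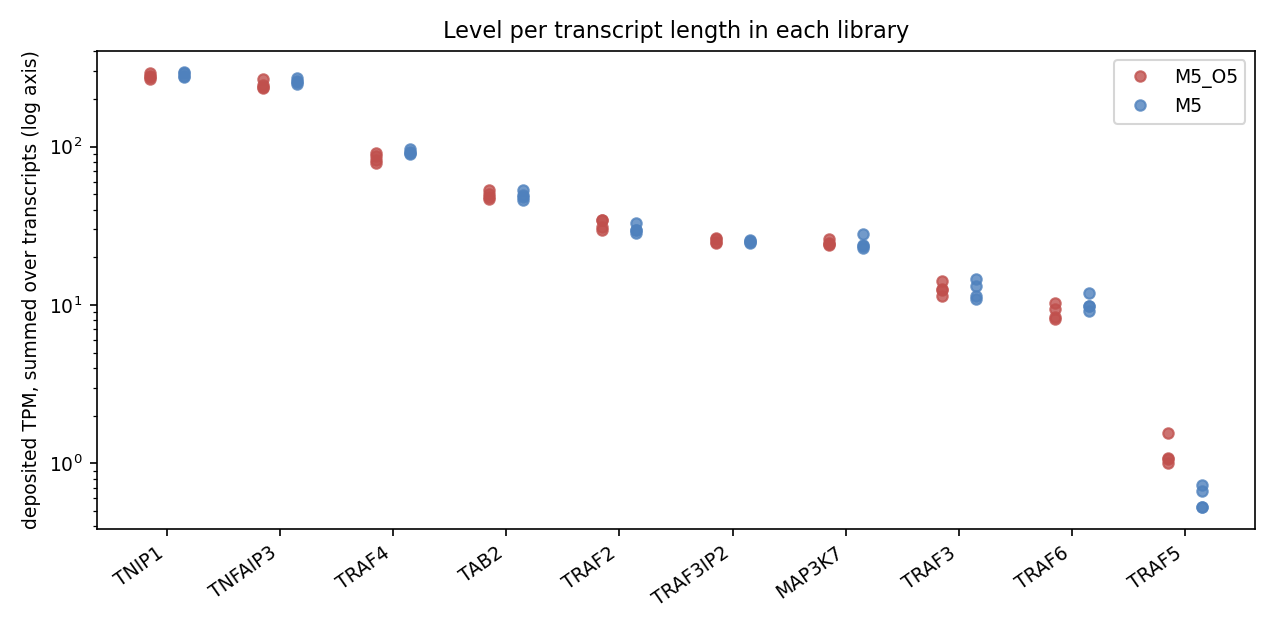
Deposited TPM of each of the 10 genes, summed over transcripts, in each library (log axis), with M5_O5 in red and M5 in blue. The order runs from TNIP1 near 278 TPM to TRAF5 near 1 TPM, and only for TRAF5 do the groups stand clear of each other.

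Within the TRAF family, TRAF4 made up most of the summed TPM of TRAF2, TRAF3, TRAF4, TRAF5 and TRAF6. It took 60.6% ± 1.45 in M5_O5 and 63.4% ± 1.26 in M5. TRAF2 took 23.0% ± 0.451 and 20.7% ± 0.834, TRAF3 9.03% ± 0.726 and 8.52% ± 0.856, and TRAF6 6.47% ± 0.854 and 6.96% ± 0.697. TRAF5 took 0.836% ± 0.143 in M5_O5 and 0.422% ± 0.0697 in M5. There were 73.9 ± 10.9 transcripts of TRAF4 for each of TRAF5 in M5_O5 and 153 ± 25.8 in M5. The shares of TRAF2 and TRAF5 did not overlap between the groups, at 22.4% to 23.5% against 20.02% to 21.7% for TRAF2 and 0.743% to 1.05% against 0.348% to 0.489% for TRAF5. A share depends on the other genes of the sum as well. The TPM of TRAF2 itself overlapped, at 29.8 to 34.3 in M5_O5 and 28.3 to 33.0 in M5. The shares were not tested, and how often such shares of other genes fail to overlap was not counted.

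The table lists transcripts, and the 10 genes had 72 of them, of which 24 held at least 10% of their gene's counts in either group. Transcripts of a gene share most of their reads, so the split between them is an estimate. Over all transcripts tested the biological coefficient of variation between replicates was 65.3%, against 7.42% over all gene sums tested. These 2 values are not specific to the 10 genes, and NM_147686 of TRAF3IP2, for example, was at 75.2 ± 3.35 CPM in M5_O5. Of the 72, 53 could be tested over all 37811 transcripts and 1 was called, as lower, against 3.27% of all transcripts in either direction and 1.57% lower. This was XM_006715555 of TNFAIP3, at 88.4 ± 5.05 CPM in M5_O5 and 105 ± 3.61 CPM in M5, with a log2 difference of −0.25 (edgeR adjusted p = 0.0494). The call was lost when any library other than M5 replicate 1 was left out, with differences of −0.29 to −0.22 and adjusted p up to 0.144. It was also lost on log2(TPM + 1) (−0.15, adjusted p = 0.292) and with a replicate block (adjusted p = 0.129).

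For some genes a single transcript held the counts. NM_004620 held 96.0% of TRAF6 in M5_O5 and 97.1% in M5, and it differed by −0.33 (SE 0.093, adjusted p = 0.121). NM_147686 held 85.9% and 88.6% of TRAF3IP2, NM_021138 81.9% and 82.7% of TRAF2, NM_001292034 80.4% and 81.7% of TAB2, and NM_145725 70.5% and 75.3% of TRAF3. The last of these differed by −0.35 (SE 0.111, adjusted p = 0.173), with every M5_O5 library below every M5 library. For TRAF4, NM_004295 held 53.3% and 52.4%, followed by XM_011525508 at 19.7% and 22.6%.

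The counts of both brakes were spread over several transcripts. For TNFAIP3, NM_006290 held 35.8% in M5_O5 and 35.1% in M5, NM_001270508 22.4% and 22.3%, NM_001270507 13.3% and 14.5%, and XM_006715555 12.98% and 13.9%. All 4 had log2 differences below 0, from −0.27 to −0.12. The next transcript, XM_024446532, fell short of the 10% mark, with 9.44% over the M5_O5 libraries and 7.34% over the M5 libraries. Its shares, at 8.27% to 10.5% in M5_O5 and 6.25% to 8.18% in M5, only just did not overlap. Its level differed by 0.22 (SE 0.107, adjusted p = 0.432). For TNIP1, NM_001252391 held 44.3% in M5_O5 and 37.9% in M5, and its share did not overlap between groups, at 41.8% to 46.0% against 34.5% to 39.96%. Its own level differed by 0.09 (SE 0.064, adjusted p = 0.640), while NM_001252386 differed by −0.32 (SE 0.173, adjusted p = 0.489) and NM_006058 by −0.33 (SE 0.172, adjusted p = 0.482).

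MAP3K7 showed a like split. XM_017011226 held 57.5% to 63.8% of its counts in the M5_O5 libraries and 48.7% to 54.8% in the M5 libraries, so the shares did not overlap. Its level differed by 0.06 (SE 0.071, adjusted p = 0.870), and that of NM_145331, which held 30.8% and 38.0%, by −0.43 (SE 0.185, adjusted p = 0.341). A test of the shares themselves was not made, and how often the shares of other genes' transcripts fail to overlap was not counted. TRAF5 was different again, since most of its few reads went to only one of 2 transcripts in each library. NM_004619 held 64.5% to 85.2% in M5_O5 replicates 1 and 3 and M5 replicates 1, 3 and 4, and was at 0 in the other 3 libraries. In those 3, M5_O5 replicates 2 and 4 and M5 replicate 2, NM_001033910 held 65.6% to 94.0% and was at 0 elsewhere. Another transcript, XM_024449459, held 6.0% to 34.4% in every library. The summed count of the gene does not depend on this assignment, but its summed TPM does, since a read adds a different TPM by transcript. In M5_O5 replicate 1, NM_004619 was at 1.11 TPM for 40.47 counts and XM_024449459 at 0.45 TPM for 8.53 counts.

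**Figure D4:**
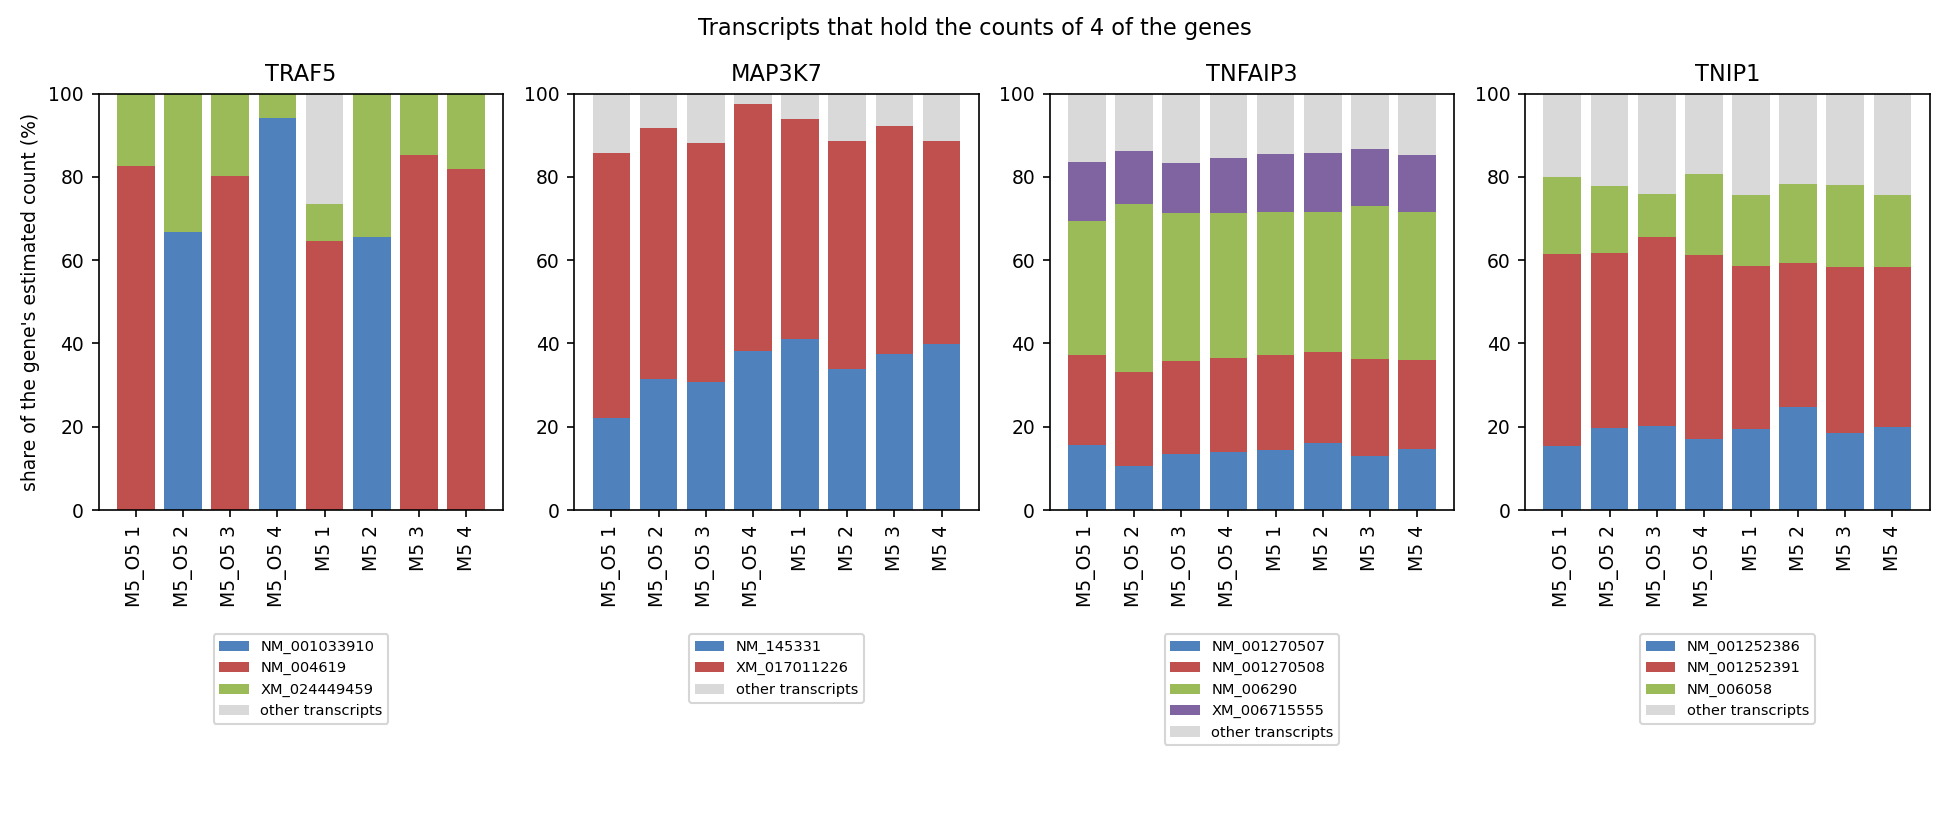
Share of a gene's estimated count held by each named transcript (y axis, %) in each of the 8 libraries, for TRAF5, MAP3K7, TNFAIP3 and TNIP1, with all other transcripts in grey. The largest transcript of TNFAIP3 holds 32.2% to 40.3% in every library, while the bars of TRAF5 switch between NM_004619 and NM_001033910 within both groups.

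Around the 10 genes, 45 others of the same receptor complexes were counted in 4 lists, and 44 of them could be tested (IRAK3 had too few reads). Of the 44, 2 were higher in M5_O5, 13 were lower and 29 did not pass, with a median log2 difference of −0.10. These lists were put together from general knowledge with earlier results of these data known, and the counts stand beside the 19.5% and 17.6% of all genes called higher and lower.

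Of the TNF receptor complex and its linear ubiquitin ligase, 3 of 9 genes were lower and 0 higher, with a median of −0.12. TRAF1, an NF-κB target that binds TRAF2, was at 7.27 to 11.5 CPM in M5_O5 and 12.8 to 17.5 CPM in M5, and differed by −0.77 (SE 0.134, adjusted p = 0.00054). RIPK1, the kinase that serves as the scaffold of the TNF receptor complex, was at 44.9 to 49.1 CPM in M5_O5 and 55.7 to 59.6 CPM in M5, a log2 difference of −0.29 (SE 0.057, adjusted p = 0.00145). RNF31 was the third (−0.24, adjusted p = 0.0186), with groups that overlapped. The adapters TRADD (−0.04) and FADD (0.00) and the ligases BIRC2 (−0.12) and BIRC3 (−0.03) did not pass.

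Of the TAK1 partners and the IKK complex, 3 of 10 were lower and 0 higher, with a median of −0.15. UBE2D3, a ubiquitin-conjugating enzyme, was at 244 to 272 CPM in M5_O5 and 299 to 324 CPM in M5 (−0.29, SE 0.054, adjusted p = 0.000978). UBE2V1, the partner of UBE2N in making the chains that TAB2 reads, differed by −0.27 (SE 0.084, adjusted p = 0.0192). UBE2V1 shares exons with the read-through gene PEDS1-UBE2V1, which differed by −0.30 (SE 0.072, adjusted p = 0.0053), so the split of reads between them is uncertain. The third was the kinase IKBKB (−0.18, adjusted p = 0.0267). MAP3K14, the kinase that TRAF3 restrains, differed by −0.17 (SE 0.111, adjusted p = 0.245).

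Of the IL-1 receptor adapters, 3 of 9 were lower and 0 higher, with a median of −0.11. IRAK2, a kinase-like adapter that works with TRAF6, was at 57.4 to 67.3 CPM in M5_O5 and 84.5 to 93.3 CPM in M5, a log2 difference of −0.50 (SE 0.061, adjusted p = 3.8e-05). PELI1, a ubiquitin ligase of the IRAK kinases, was at 27.9 to 31.6 CPM in M5_O5 and 35.4 to 40.9 CPM in M5 (−0.33, SE 0.068, adjusted p = 0.0018). PELI2 was the third (−0.28, adjusted p = 0.0407).

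Of 16 other brakes and deubiquitinases, 2 were higher, 4 lower and 10 did not pass, with a median of −0.07. TNIP3, a relative of TNIP1, was at 38.8 to 45.3 CPM in M5_O5 and 32.5 to 37.4 CPM in M5, higher by 0.27 (SE 0.073, adjusted p = 0.0113). USP18, an interferon-induced protease, was at 3.20 to 4.86 CPM in M5_O5 and 2.30 to 3.09 CPM in M5, higher by 0.64 (SE 0.167, adjusted p = 0.0083). ITCH, a ligase that works with TNFAIP3, differed by −0.34 (SE 0.056, adjusted p = 0.000347), and N4BP1, a ubiquitin-binding inhibitor of NF-κB, by −0.32 (SE 0.053, adjusted p = 0.000414). The deubiquitinases OTUD7B (−0.23, adjusted p = 0.0064) and OTULIN (−0.20, adjusted p = 0.0231) were also lower, while the deubiquitinase CYLD differed by 0.01 (adjusted p = 0.879). Of the 10 genes named from these lists by rule, TRAF1, IRAK2, N4BP1 and TNIP3 passed on all 4 scalings. RIPK1, PELI1 and ITCH did not pass on log2(TPM + 1), USP18 did not pass once the expression level trend was removed (0.42, adjusted p = 0.0647), and UBE2D3 and UBE2V1 failed on 2 and 3 of the 4.

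**Figure D5:**
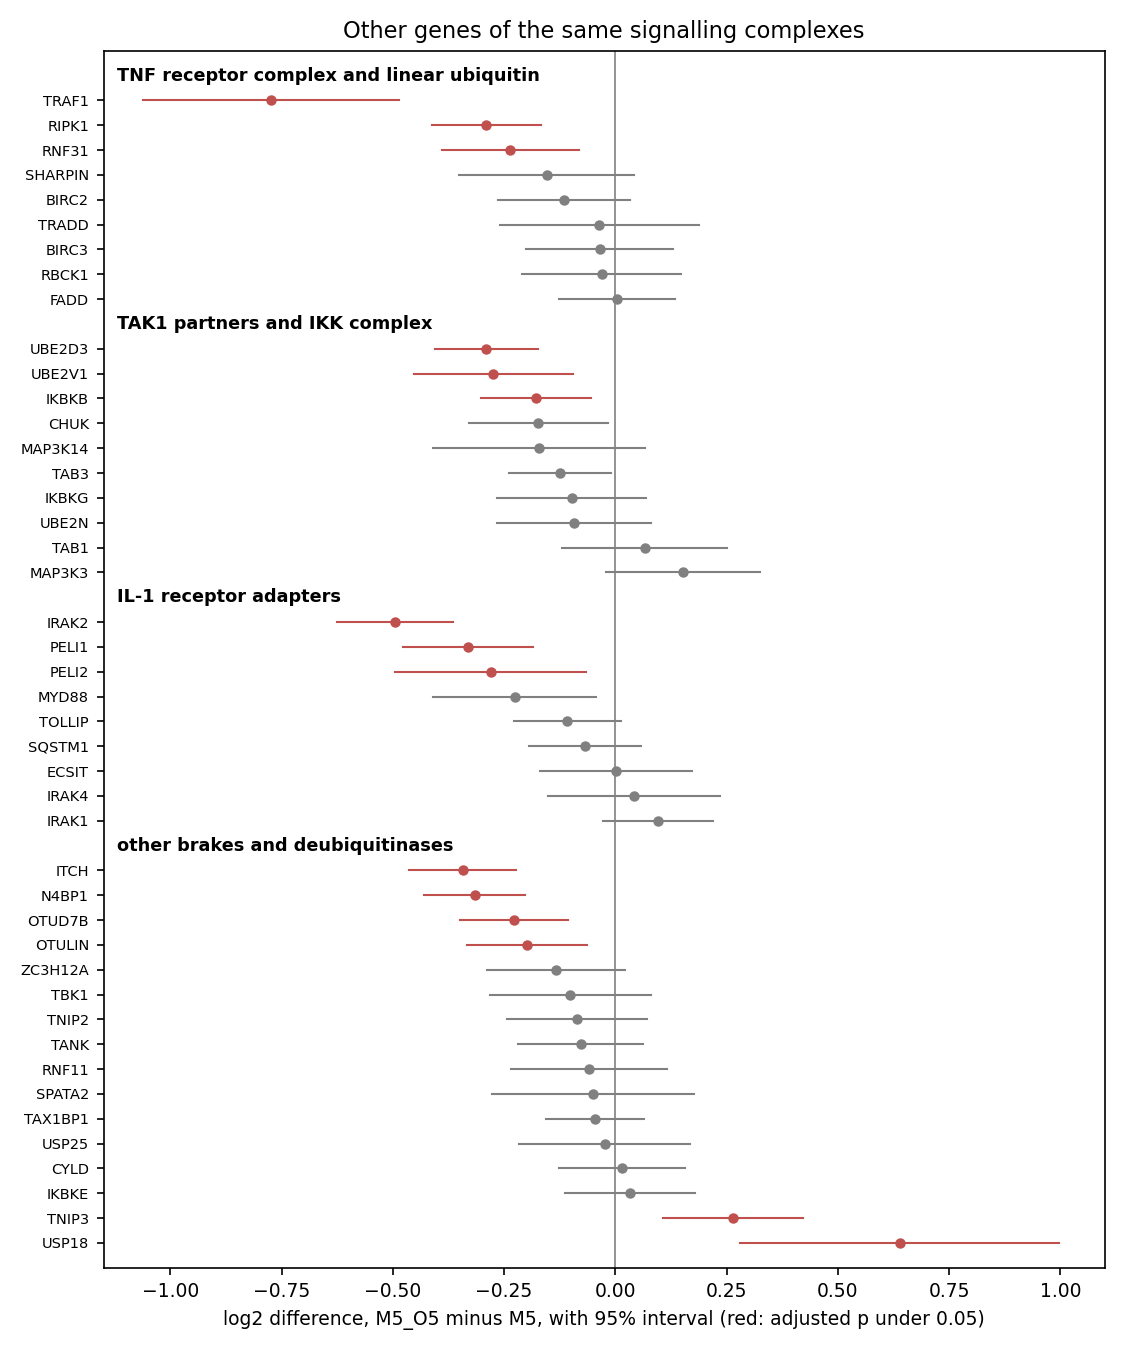
Log2 difference, M5_O5 minus M5 (x axis), with its 95% interval for the 44 other genes of the same signalling complexes, grouped by list, with genes at an adjusted p under 0.05 in red. In red, 13 genes lie to the left of 0, led by TRAF1 and IRAK2, and TNIP3 and USP18 lie to the right.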

How the data were processed

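RNA was sequenced from 8 HaCaT libraries, 4 per title, and the groups follow the titles. The 10 genes, the gene lists and the tests were chosen with earlier results of these data known. The authors mapped reads with HISAT2 (2.1.0) and quantified them with StringTie, by the paper's methods. The submitters' processing notes also list Bowtie2 (2.2.5), RSEM (1.2.8) and the mouse build mm10, so the build behind the table is unsettled and no gene position was taken from it. The deposited estimated counts per transcript were not normalized. The deposited TPM were scaled by the authors to transcript length and a fixed library sum. The deposited FPKM, scaled by the authors to length and depth, were not used in any result.

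Over 86639 transcript rows, the estimated counts were summed per Entrez identifier and rounded. Symbols came from the RefSeq gene table (17072 of 17131 matched), and promoter sequences from RefSeq on GRCh38.p14. Genes were filtered with filterByExpr, scaled by TMM and tested with edgeR 4.0.16 (R 4.3.3), with Benjamini-Hochberg adjustment over all genes and a threshold of 0.05. The standard error was derived from the F value. Named list genes have an adjusted p under 0.05, at least 1 CPM, and are among the 2 largest differences per direction of their list. Others are named after their values were seen. Named transcripts hold at least 10% of their gene's count, except XM_024446532 of TNFAIP3. Alternatives were DESeq2 1.42.0, limma 3.58.1 on log2(TPM + 1) or with 0.1 added, other scalings and filters, a replicate block and leaving out each library. Scripts were tested on simulated data. Replicate pairs differed beyond sampling noise (chi-square per gene at least 2.03), so all 8 libraries were kept. Exact permutation tests used log2(CPM + 1).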

Additional observations from a re-analysis of the deposited data

Results flagged for a closer look

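Across 40 groups of 4 libraries checked, the 10 genes and the 10 named list genes in each group, 2 held a library far from the other 3 by Dixon's test, and chance alone gives about 2. TRAF1 was at 12.8 CPM in M5 replicate 1, against 17.1 to 17.5 CPM in the other M5 libraries. UBE2D3 was at 299 CPM in M5 replicate 2, against 323 to 324 CPM in the others. Each of these libraries was still above every M5_O5 library. None of the 10 adapter and brake genes was among them.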

How the results depend on the processing

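Of 190 refits of the 10 genes, 142 kept direction and side of the threshold, 31 lost a call, 3 gained one and 14 turned sign. The call of TRAF5 held in 18 of 19 alternatives, TRAF6 in 17, TRAF3 and TRAF4 in 15, TNFAIP3 in 9 and MAP3K7 in 5. By library size alone 3858 genes were called higher and 1008 lower, of the 10 genes 1 was lower, and of the list genes 4 were higher and 7 lower. With the expression level trend removed 0 of the 10 were higher and 2 lower. On log2(TPM + 1) and log2(TPM + 0.1), 761 and 768 genes were lower, 0 of the 10 and 3 of the list genes. With a fold of at least 2, 357 genes were higher and 41 lower, and 0 of the 10 and of the list genes. Centring log2(TPM + 1) on the library median, chosen after seeing the data, left 3 of the 10 lower, with 2347 of all genes lower. Leaving out replicate 1 of both groups, also chosen after seeing the data, gave 20 list genes lower, with 2692 of all genes lower. DESeq2 called 1 of the 10 higher and 5 lower, with 2127 of all genes higher and 2355 lower. Leaving out 1 library gave 1902 to 2872 genes higher and 1676 to 2504 lower, 3 to 5 of the 10 lower and 9 to 15 list genes lower. 

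Signs turned as follows. By library size alone TRAF3IP2 was at 0.00668, TRAF2 at 0.0760 and TAB2 at 0.00798. On log2(TPM + 1) and log2(TPM + 0.1) TRAF3IP2 was at 0.0138 and 0.0142, TRAF2 at 0.0913 and 0.0939, TRAF3 at 0.0253 and 0.0275, MAP3K7 at 0.0112 and 0.0117, and TAB2 at 0.0139 and 0.0142. TRAF2 was between −0.0870 and 0.0331 when 1 library was left out. Transcript NM_021138 of TRAF2 was at 0.0672 on log2(TPM + 1) and between −0.0959 and 0.0325 with 1 library left out, NM_003300 of TRAF3 between −0.53 and 0.32, XM_011525506 of TRAF4 between −0.12 and 0.24, and NM_004619 of TRAF5 between −0.51 and 0.75. The cause was not tested.

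With the replicate number as a block, 2703 genes were higher and 2552 lower, TNIP1 passed (adjusted p = 0.0175), and NM_004619 of TRAF5 was at −0.52. These values do not settle whether the numbers pair the libraries. Same-numbered libraries correlated at −0.00 to 0.21 in their deviations from the group means. The highest correlation was between replicate 1 of both groups (0.209), but M5 replicate 2 was nearest to M5_O5 replicate 3 (0.206). TRAF5, at 16 to 49 reads, is the gene most limited by depth.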
